A study of Macaca mulatta with 24 samples.

Results

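The enzymes of glycolysis and gluconeogenesis, with the phosphoglucomutases and the bifunctional enzymes that set the level of fructose bisphosphate signals, were taken as 34 listed genes and followed step by step through omental white adipose tissue (WAT) of female rhesus macaques. A gene's row was the Ensembl identifier that the gene name table, or else the study's supplementary tables, paired with its symbol, and where there were several identifiers the one with the most counts was used. Of the 32386 rows of the count table, 29 were matched to a listed gene, and *TPI1*, *PGAM2*, *ENO1*, *PKM* and *G6PC3* were not analysed here. Of these 29 genes, 27 passed the filter on low counts and were tested together with all 15207 genes that passed it; *FBP2* and *PFKFB3* did not pass.

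Biopsies of omental fat, a visceral depot, were taken in year 3 of treatment from 24 females, 6 in each of 4 groups, and 1 RNA-seq library of rRNA-depleted total RNA was made per animal. The control group (*C*) carried cholesterol implants and ate monkey chow, the testosterone group (*T*) carried testosterone implants and ate chow, the *WSD* group carried cholesterol implants and ate a high-fat Western-style diet, and the *T* + *WSD* group had testosterone implants with the Western-style diet, each for 3 years. The labels give all animals an age of 4 years, while the methods of the study give an older age, and age was not used. The study chose the 24 animals from larger groups because they resembled the group averages in fat mass and insulin, so that the spread within groups is that of selected animals.

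Glycolysis breaks glucose down to pyruvate in the cytosol, and gluconeogenesis runs most of the same reversible steps backwards, with its own enzymes at the irreversible ones. In fat cells, glucose that enters through the insulin-responsive transporter supplies glycerol phosphate for triglyceride storage, acetyl units for fatty acid synthesis and lactate for export. Adipose tissue is not known as a source of free glucose, and its phosphoenolpyruvate carboxykinase is known for glyceroneogenesis, in which pyruvate is turned into glycerol phosphate to re-esterify fatty acids.

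Total counts per library ran from 6899185 to 28270776, and the 29 member genes together took between 0.173% and 0.656% of them. In 8 libraries, the lowest-numbered 2 of each group, 1 gene of unknown symbol (ENSMMUG00000038258) took between 9.92% and 54.7% of the counts, against at most 2.51% in the other 16, and these are called the library batch below. The tissue label was checked with its defining markers, and *ADIPOQ* and *PLIN1* were detected in every animal at 381 CPM (counts per 1000000 counts) or more and at 315 CPM or more. Animal *C* 1 stood apart, with summed adipocyte markers at 2861 CPM beside 12483 to 36287 CPM in the other 23 animals and with the highest summed mesothelial markers, 40734 CPM. Over the 13 mesothelial markers with a row, 11 were called lower in *T* + *WSD* than in *C* by the rule given below (5.29% of all tested genes were). Their summed levels were 332 to 3404 CPM against 3059 to 40734 CPM. Most counts of the mesothelial list were of *ITLN1* (2481438 over all animals, with *MSLN* next at 139151), so the sums mainly follow that gene. The endothelial list had 5 of 10 members called higher (4.72% of all tested genes were). In whole biopsies, fewer cells of a type and less RNA per cell cannot be told apart.

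Levels below are CPM on normalized library sizes, given as the lowest to highest of the 6 animals with the median in parentheses. Because gene lengths were not used, levels are compared between animals and never between genes. Fold changes are log2 values from 1 fit of edgeR's quasi-likelihood test to all 24 animals, ± their standard error, with p values adjusted by Benjamini-Hochberg over the 15207 genes. Calls required that the adjusted p be below 0.05 and the fold change above 1.5, and in the interaction of testosterone and diet that the adjusted p be below 0.1.

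The share of these enzymes called in *T* + *WSD* against *C* was near that of all tested genes. In *T* + *WSD* against *C*, hexokinase 2 rose, and the liver and red cell pyruvate kinase *PKLR* and the mitochondrial carboxykinase *PCK2* fell, which is 3 of 27 members (11.1%) beside 10% of all tested genes; *HK2* was 1 of 27 higher (4.72% of all genes) and the other members were 2 of 27 lower (5.29%). At an unadjusted p under 0.05, 3 members were higher (13.7% of all genes were) and 5 lower (18.4%). DESeq2 also called 3 members there, beside 10.9% of the genes it adjusted. None of the 3 was called by edgeR in a fit with the mean of the mesothelial or of the adipocyte markers as a covariate, or in the 16 libraries outside the library batch. Over all genes, 0 were called with the mesothelial covariate, 140 with the adipocyte covariate and 78 in the 16 libraries. The fit of all animals without covariates called 1522. For diet alone (*WSD* against *C*) and testosterone alone (*T* against *C*) edgeR called no member, beside 0% of all genes in each. The absence of calls there is therefore not particular to these enzymes. At an unadjusted p under 0.05, *WSD* against *C* had 7 members higher (9.59% of all genes were) and 1 lower (8.87%), which is 29.6% of members beside 18.5% of all genes. DESeq2 called 1 of them, *ALDOA*, higher (adjusted p = 0.0490), beside 1.58% of its genes. The same count in *T* against *C* was 1 member, *BPGM*, higher (3.7% of members, beside 8.63% of all genes in either direction and 3.54% higher), and DESeq2 called none (0.0466% of its genes).

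With testosterone added to the diet (*T* + *WSD* against *WSD*), 1 member was lower, the phosphofructokinase subunit *PFKL* (3.7%, beside 0.815% of all genes called and 0.381% called lower). A further 6 members were lower at an unadjusted p under 0.05, 7 in all, beside 12.1% of all genes, and DESeq2 called *PFKL* and *PFKFB1*, beside 2.54% of its genes. With the diet added to testosterone (*T* + *WSD* against *T*), 3 members changed (11.1%, beside 3.77%), *HK2* higher (2.34% of all genes were) and *PCK2* and *PFKFB1* lower (1.43%), and DESeq2 called 3 members (*HK2*, *PCK2*, *PFKFB1*) there, beside 5.92% of its genes. In the interaction no member was called by edgeR, beside 0.809% of all genes. There, 5 members were lower and none higher at an unadjusted p under 0.05 (18.5%, beside 13.5% of all genes in either direction and 7.26% lower), and DESeq2 called 1, *PFKFB1* (adjusted p = 0.0277), beside 2.77% of its genes. These comparisons share groups, so their counts are not independent of each other.

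Counting all members, called or not, the signs leaned opposite ways in 2 comparisons. In *WSD* against *C*, 19 of the 27 members had a positive log2 fold change and the median over the members was 0.28, against a median of -0.02 over all tested genes. The median was 0.18 without *C* 1 (19 positive), 0.17 in the 16 libraries outside the batch (19 positive) and 0.10 with the adipocyte list mean as a covariate (18 positive). Of the 16 adipocyte markers, 15 were also positive in *WSD* against *C*, with a median of 0.53, and none was called. In *T* + *WSD* against *WSD*, 21 of the 27 were negative with a median of -0.29, against -0.03 over all genes. Both comparisons use the same *WSD* animals, so the values are not independent of each other. In *T* + *WSD* against *C* the members divided into 13 positive and 14 negative with a median of -0.06. In the interaction, 22 of the 27 were negative with a median of -0.35, against -0.02 over all tested genes. The interaction is built from the same animals, so its lean is not independent of those above.

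**Figure D1:**
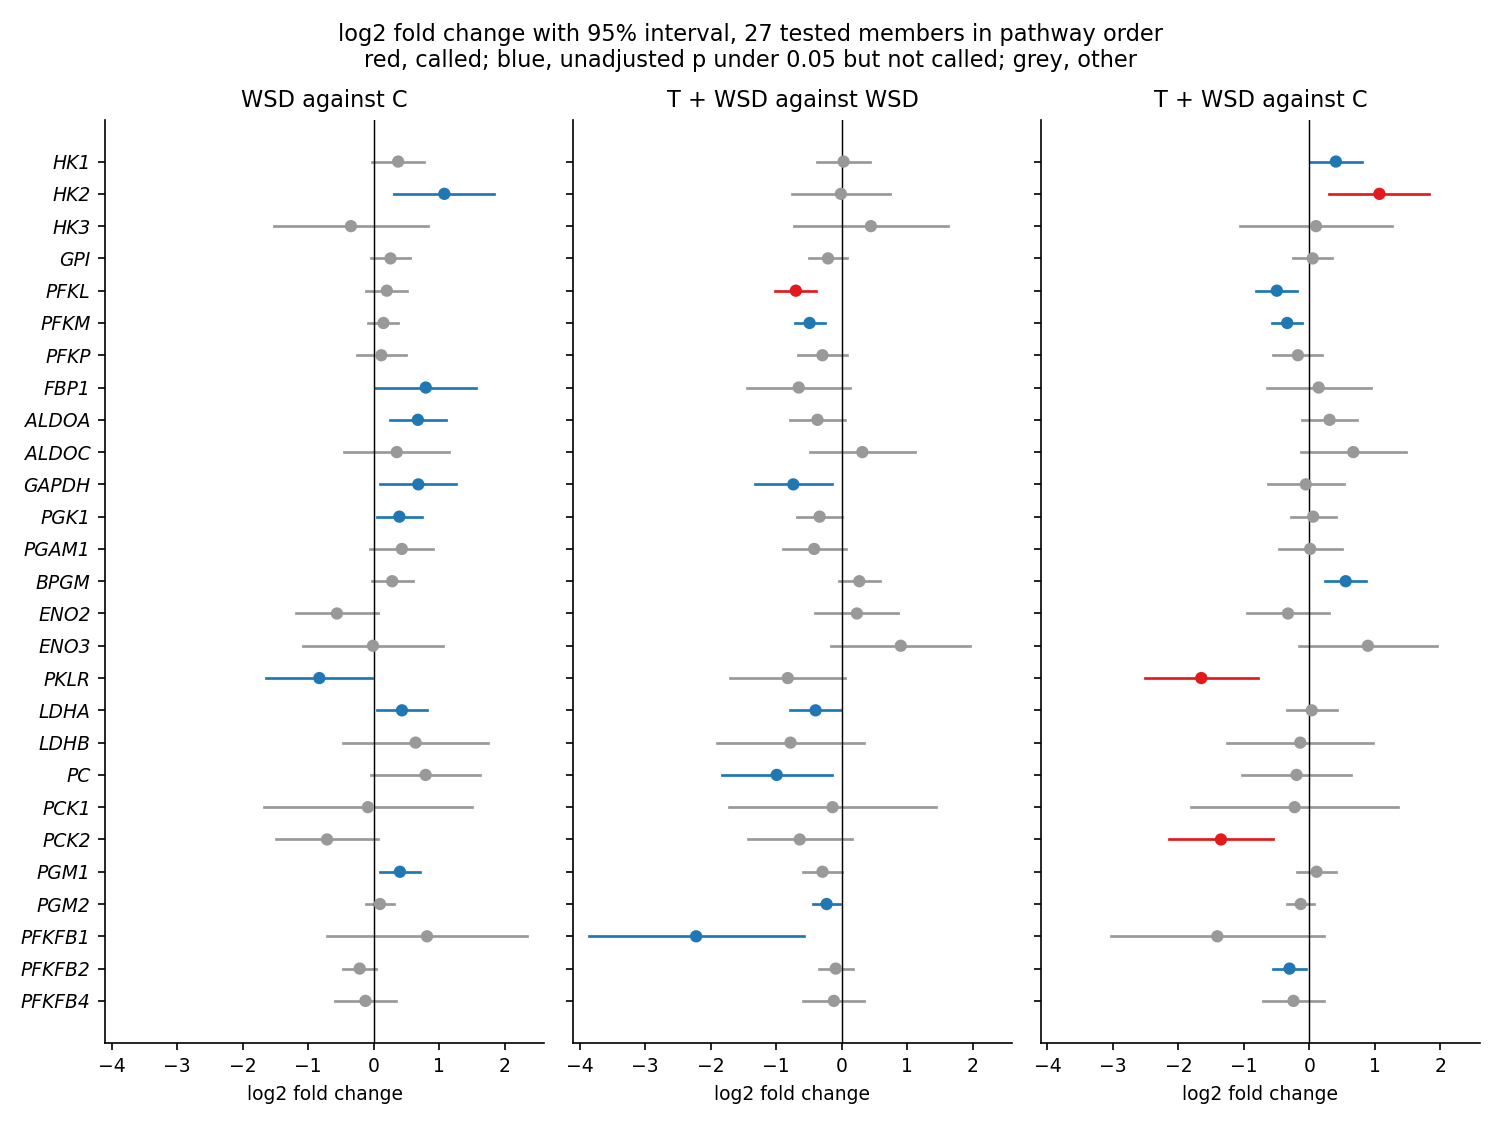
Each row is 1 of the 27 tested members in pathway order, and each point is its log2 fold change on the x axis with the 95% interval as a line, in *WSD* against *C*, *T* + *WSD* against *WSD* and *T* + *WSD* against *C*. Red marks members that were called and blue an unadjusted p under 0.05 only; 7 blue points lie to the right of 0 in the first panel, and in the second the red point is *PFKL* at -0.70.

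Hexokinases trap glucose in the cell as glucose 6-phosphate. *HK2*, the insulin-regulated form of muscle and fat, ran from 7.99 to 38.8 CPM (median 22.1) in *C*, 7.38 to 38.3 CPM (median 14.4) in *T*, 17.3 to 62.7 CPM (median 45.1) in *WSD* and 35.0 to 64.6 CPM (median 40.2) in *T* + *WSD*. In *WSD* 5 of 6 animals and in *T* + *WSD* 4 of 6 lay above every control, and the *T* animals overlapped the controls. The log2 fold change was 1.07 ± 0.37 (SE, adjusted p = 0.0484) in *T* + *WSD* against *C* and 1.39 ± 0.37 (SE, adjusted p = 0.0316) in *T* + *WSD* against *T*, where 5 of 6 animals lay above every *T* animal. In *WSD* against *C* it was of like size, 1.08 ± 0.37 (SE, adjusted p = 0.16), but was not called. Against *WSD*, *T* + *WSD* differed by -0.01 (95% interval -0.76 to 0.74, adjusted p = 0.992).

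The call of *HK2* in *T* + *WSD* against *C* lay near the threshold. With the library batch, which is spread evenly over the 4 groups, as a covariate the log2 fold change was 1.07 and the call was lost (adjusted p = 0.0544). Over the 24 fits that left out 1 animal the log2 fold change stayed between 0.91 and 1.32, and the adjusted p ran from 0.0250 to 0.107 and was under 0.05 only without *C* 4, *T* 14, *T* 15, *T* 16, *WSD* 19 or *WSD* 20. In a fit with the adipocyte list mean as a covariate, the log2 fold change of *HK2* was 0.59 (adjusted p = 0.314). Over all genes, that fit called 140 in this comparison, against 1522 without the covariate. The summed adipocyte markers themselves ran from 21586 to 29707 CPM in *T* + *WSD* and from 2861 to 24266 CPM in *C*. The part of adipocytes in the *HK2* level was not tested. Against *T* the call was lost without *T* 13, 15, 16 or 18 or *T* + *WSD* 8, 9 or 10, with log2 fold changes of 1.23 or more throughout.

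*HK1*, the broadly expressed hexokinase, ran from 56.0 to 179 CPM (median 146) in *C*, 141 to 199 CPM (median 184) in *T*, 124 to 215 CPM (median 179) in *WSD* and 159.7 to 214 CPM (median 178) in *T* + *WSD*. Only *C* 1, at 56.0 CPM, lay far below the rest, and the log2 fold change in *T* + *WSD* against *C* was 0.40 ± 0.19 (SE, adjusted p = 0.151). *HK3*, a hexokinase of myeloid cells, spread widely within every group, with 3.88 to 82.4 CPM in *C*, 5.84 to 71.5 CPM in *T*, 16.3 to 45.3 CPM in *WSD* and 18.9 to 71.6 CPM in *T* + *WSD*. Its lowest and highest animals, *C* 1 and *C* 2, were also the lowest and highest of the 24 in the summed macrophage and myeloid markers, at 251 and 1776 CPM, and the part of those cells in its level was not tested.

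*GPI*, which interconverts glucose 6-phosphate and fructose 6-phosphate, ran from 241 to 454 CPM (median 414) in *C*, 338 to 482 CPM (median 398) in *T*, 397 to 550.1 CPM (median 446) in *WSD* and 294 to 487 CPM (median 399) in *T* + *WSD*. Its groups overlapped, and the log2 fold change was 0.05 (95% interval -0.25 to 0.35, adjusted p = 0.856) in *T* + *WSD* against *C*.

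Phosphofructokinase carries out the committed step of glycolysis as a tetramer of the subunits *PFKL*, *PFKM* and *PFKP*. *PFKL* ran from 156 to 209 CPM (median 174) in *C*, 124 to 199.9 CPM (median 180.1) in *T*, 143 to 310.2 CPM (median 199.9) in *WSD* and 107 to 143 CPM (median 128) in *T* + *WSD*. All 6 *T* + *WSD* animals lay below every control and every *WSD* animal, the latter by a margin of less than 1 CPM, and *PFKL* was the only member of the 27 below without overlap there (1.37% of all genes were). *PFKL* had a log2 fold change of -0.70 ± 0.15 (SE, adjusted p = 0.0328) in *T* + *WSD* against *WSD*, which was called, and -0.50 ± 0.15 (SE, adjusted p = 0.028) against *C*, where the fold change was under 1.5. The highest of the 24 animals, *WSD* 24 at 310.2 CPM, weighed on the first value, since without it the log2 fold change was -0.54 (adjusted p = 0.0891). The call was also lost without *WSD* 20 or without *T* + *WSD* 7, 8, 9, 10 or 11, with log2 fold changes down to -0.78 over all 24 fits.

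The muscle subunit *PFKM* moved with the same sign. Its levels ran from 68.3 to 77.9 CPM (median 72.0) in *C*, 59.8 to 92.0 CPM (median 67.9) in *T*, 62.8 to 100.4 CPM (median 78) in *WSD* and 51.7 to 64.5 CPM (median 56.9) in *T* + *WSD*, and again every *T* + *WSD* animal lay below every control. The log2 fold changes of -0.34 ± 0.11 (SE, adjusted p = 0.0382) against *C* and -0.49 ± 0.11 (SE, adjusted p = 0.0343) against *WSD* passed the adjusted p but not the fold change. *PFKL* and *PFKM* were the only members of the 27 with all *T* + *WSD* animals below all controls (4.12% of all tested genes were), and no member had all of them above (3.49% of all genes did). For the platelet subunit *PFKP*, with 25.5 to 42.5 CPM in *C*, 23.5 to 43.3 CPM in *T*, 15.7 to 46.0 CPM in *WSD* and 26.0 to 29.7 CPM in *T* + *WSD*, the log2 fold change was -0.18 (95% interval -0.55 to 0.20, adjusted p = 0.539) against *C*.

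In the interaction, the log2 values of *PFKL* and *PFKM* were -0.67 ± 0.21 (SE, adjusted p = 0.177) and -0.48 ± 0.16 (SE, adjusted p = 0.181), so that the testosterone difference was lower under the Western-style diet than on chow without passing the threshold. Both were called when *WSD* 21 was left out, with adjusted p of 0.0680 and 0.0935, and in no other fit that left out an animal.

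**Figure D2:**
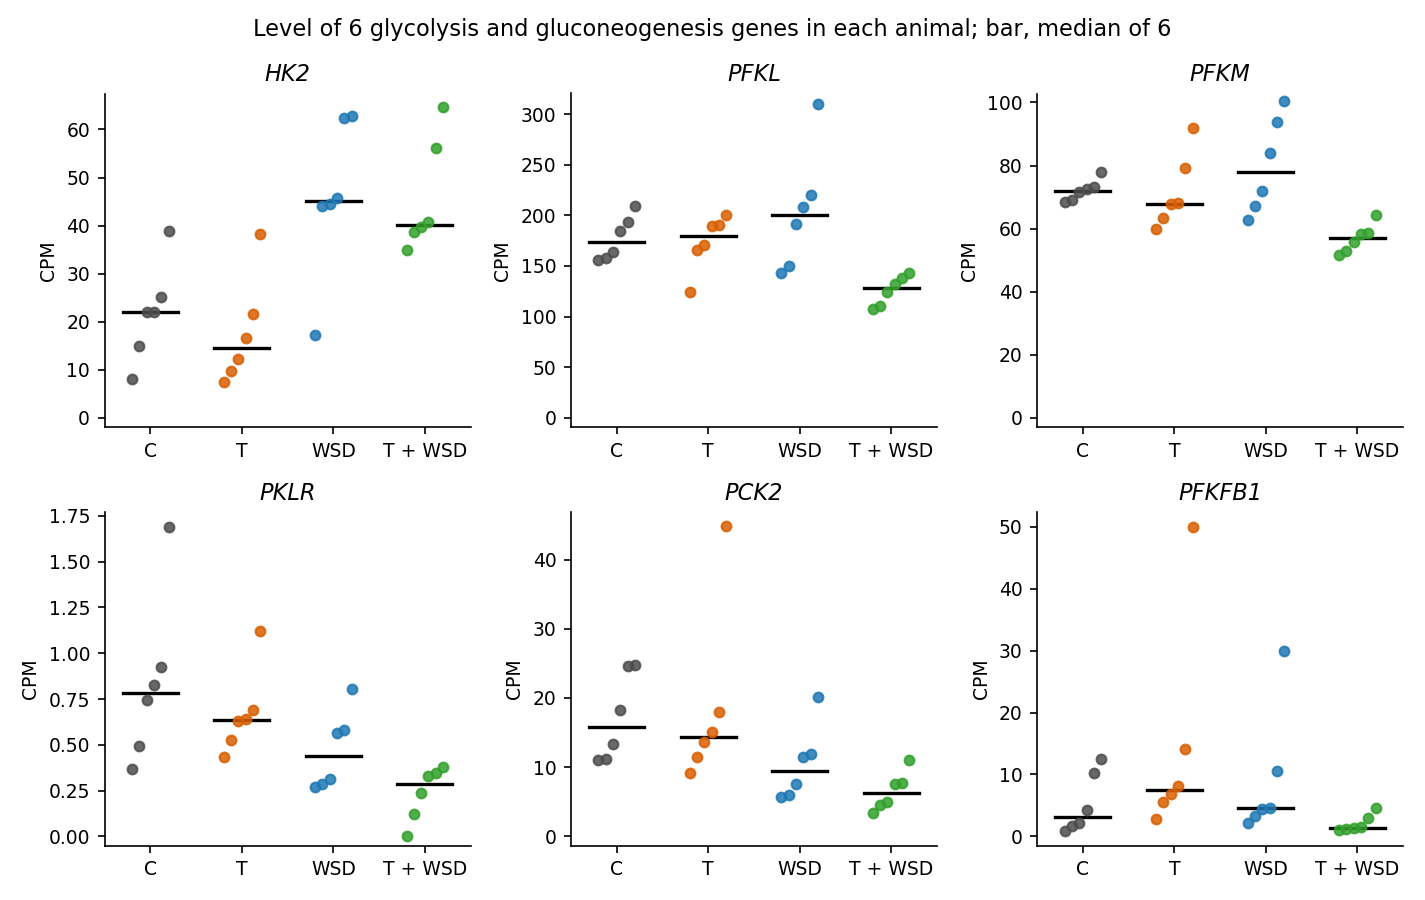
Each point is 1 animal, the y axis is CPM from 0 and the bar is the median of 6 animals, for the 5 members called in any comparison and *PFKM*. All *T* + *WSD* animals lie below all *C* animals for *PFKL* and *PFKM*, the *WSD* and *T* + *WSD* medians of *HK2* (45.1 and 40.2 CPM) lie above that of *C* (22.1 CPM), and 1 *T* animal is far above the others for *PCK2* and *PFKFB1*.

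The PFKFB enzymes make and remove the fructose bisphosphate that stimulates phosphofructokinase and inhibits fructose bisphosphatase. *PFKFB1*, the form named for liver and muscle, ran from 0.899 to 12.5 CPM (median 3.21) in *C*, 2.87 to 49.9 CPM (median 7.46) in *T*, 2.12 to 29.9 CPM (median 4.57) in *WSD* and 1.08 to 4.52 CPM (median 1.41) in *T* + *WSD*. Animal *T* 16 at 49.9 CPM and *WSD* 20 at 29.9 CPM lay far above the rest, and 4 of 6 *T* + *WSD* animals lay below every *T* and every *WSD* animal. Its log2 fold change was -2.93 ± 0.80 (SE, adjusted p = 0.0346) in *T* + *WSD* against *T*, which was called, and -2.22 ± 0.79 (SE, adjusted p = 0.121) against *WSD*. Without *WSD* 20 the latter was -1.38 (adjusted p = 0.346). Without *T* 16 the former was -1.96 (adjusted p = 0.11), and the call was also lost without *T* 17 or without *T* + *WSD* 7, 8, 9, 10 or 12.

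*PFKFB1* also had the smallest adjusted p of the members in the interaction, at a log2 value of -3.74 ± 1.08 (SE, adjusted p = 0.138). DESeq2 gave -3.63 (adjusted p = 0.0277) for the same term, past the threshold. In edgeR the value was -2.77 (adjusted p = 0.246) without *T* 16 and -2.90 (adjusted p = 0.264) without *WSD* 20, and it was called in 1 of the 24 fits that left out 1 animal, without *WSD* 21.

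*PFKFB4*, which together with *PFKFB3* is known as a hypoxia-inducible form, ran from 6.07 to 10.8 CPM (median 9.37) in *C*, 6.81 to 22.2 CPM (median 9.85) in *T*, 6.31 to 10.6 CPM (median 8.45) in *WSD* and 6.97 to 8.36 CPM (median 7.62) in *T* + *WSD*. The *T* + *WSD* animals kept within a narrow range, and the log2 fold change was -0.62 ± 0.22 (SE, adjusted p = 0.087) against *T*. *PFKFB2*, the heart form, had 7.46 to 13 CPM in *C*, 7.82 to 10.3 CPM in *T*, 6.62 to 8.94 CPM in *WSD* and 6.50 to 7.79 CPM in *T* + *WSD*, with all *T* + *WSD* animals below all *T* animals by a margin of less than 0.1 CPM. *PFKFB2* and *PKLR* were the 2 members below *T* without overlap (3.10% of all genes were). *PFKFB3* was near the limit of detection, with at most 8 counts in any animal and at or below 3 counts in every *T* animal, which is the floor used here, and was not tested.

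Fructose bisphosphatase opposes phosphofructokinase in gluconeogenesis. *FBP1*, the liver form, was scarce, with 2 to 64 counts per animal, and ran from 0.328 to 1.46 CPM (median 0.853) in *C*, 0.808 to 2.6 CPM (median 1.10) in *T*, 1.04 to 2.45 CPM (median 1.38) in *WSD* and 0.454 to 1.70 CPM (median 0.901) in *T* + *WSD*. Its log2 fold change in *WSD* against *C* was 0.79 ± 0.37 (SE, adjusted p = 0.258), and the groups overlapped. *FBP2*, the muscle form, had at most 16 counts in 23 animals and 151 counts (5.48 CPM) in *T* 16, and was not tested.

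Aldolases split fructose bisphosphate into a pair of triose phosphates. *ALDOC* ran from 76.4 to 1125 CPM (median 850.5) in *C*, 487 to 1492 CPM (median 677) in *T*, 749 to 1219 CPM (median 1039) in *WSD* and 784 to 1536 CPM (median 1289) in *T* + *WSD*. Animal *C* 1 lay far below all others at 76.4 CPM, 5 of 6 *T* + *WSD* animals lay above every control, and the log2 fold change was 0.67 ± 0.39 (SE, adjusted p = 0.242). *ALDOA*, the muscle and general form, had 113 to 269 CPM in *C*, 171 to 324 CPM in *T*, 198 to 482 CPM in *WSD* and 233 to 293 CPM in *T* + *WSD*, with 4 of 6 *WSD* animals above every control. Its log2 fold change in *WSD* against *C*, 0.67 ± 0.20 (SE, adjusted p = 0.136), had the smallest adjusted p of the members in that comparison.

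*GAPDH*, which oxidizes glyceraldehyde phosphate, ran from 187 to 580.4 CPM (median 471) in *C*, 299 to 641 CPM (median 357) in *T*, 399 to 1140.3 CPM (median 615) in *WSD* and 288 to 519.9 CPM (median 400.1) in *T* + *WSD*. Animals *WSD* 20, 23 and 24, at 795, 899 and 1140.3 CPM, lay above every other animal of the study, while *WSD* 19, 21 and 22 lay within the range of the controls. *GAPDH* differed on the log2 scale by 0.68 ± 0.28 (SE, adjusted p = 0.209) in *WSD* against *C* and -0.74 ± 0.28 (SE, adjusted p = 0.143) in *T* + *WSD* against *WSD*, and neither was called.

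*PGK1*, which makes the first ATP of glycolysis, ran from 121 to 198 CPM (median 168) in *C*, 99.1 to 216 CPM (median 144) in *T*, 155 to 277 CPM (median 221) in *WSD* and 160.1 to 187 CPM (median 168) in *T* + *WSD*. In *WSD* 4 of 6 animals lay above every control, with a log2 fold change of 0.39 ± 0.17 (SE, adjusted p = 0.22). *PGAM1*, the mutase of the next step, ran from 17.5 to 30.7 CPM (median 23.9) in *C*, 14.2 to 35.0 CPM (median 21.3) in *T*, 18.9 to 41.2 CPM (median 35.2) in *WSD* and 17.8 to 32.0 CPM (median 23) in *T* + *WSD*. Here too 4 of 6 *WSD* animals lay above every control, and the log2 fold change was 0.43 ± 0.23 (SE, adjusted p = 0.324).

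*BPGM*, which makes the bisphosphoglycerate that lowers the oxygen affinity of haemoglobin in red cells, ran from 6.65 to 10.9 CPM (median 7.32) in *C*, 8.26 to 14 CPM (median 9.18) in *T*, 7.32 to 11.6 CPM (median 10.1) in *WSD* and 10.6 to 13.9 CPM (median 11.8) in *T* + *WSD*. In *T* + *WSD* 4 of 6 animals lay above every control, and only *C* 6 overlapped them. The log2 fold change of 0.55 ± 0.15 (SE, adjusted p = 0.0165) in *T* + *WSD* against *C* passed the adjusted p but lay under the fold change of 1.5, and without *C* 6 it was 0.66 and was called. The summed erythroid markers did not separate the groups, with 4.54 to 35.9 CPM in *C* and 7.96 to 59.4 CPM in *T* + *WSD*.

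Enolase turns phosphoglycerate into phosphoenolpyruvate, and among the measured forms *ENO2*, named for neurons, held the most counts. *ENO2* ran from 1.64 to 7.99 CPM (median 3.39) in *C*, 2.43 to 5.91 CPM (median 4.32) in *T*, 2.09 to 3.14 CPM (median 2.69) in *WSD* and 1.13 to 3.83 CPM (median 3.35) in *T* + *WSD*, and its log2 fold change was -0.33 (95% interval -0.95 to 0.30, adjusted p = 0.487) in *T* + *WSD* against *C*. *ENO3*, the muscle form, had 1.35 to 2.64 CPM in *C*, 1.03 to 6.39 CPM in *T*, 0.907 to 3.16 CPM in *WSD* and 0.836 to 10.6 CPM in *T* + *WSD*. Its 3 highest animals were *T* + *WSD* 10 at 10.6 CPM, *T* 16 at 6.39 CPM and *T* + *WSD* 11 at 5.37 CPM. The skeletal muscle markers *CKM* and *ACTA1* were also highest in these 3, at 5.46 to 11.2 CPM and 10.4 to 28.7 CPM, and at most 3.05 and 4.76 CPM in the other 21 animals, with *CKM* at 0 in 8 of them; both were picked from the list after their values were seen. Summed over the skeletal muscle markers with a row, all 6 *T* + *WSD* animals (346 to 757 CPM) lay above every other animal (at most 297 CPM, in *T* 16). Most counts of this list were of *TTN* (88152 over all animals, with *TNNT3* next at 12512). In *T* + *WSD* 7, 8 and 9, *CKM* was at 0, 0 and 0.082 CPM and *ACTA1* at 0.12, 0 and 0.12 CPM. The sum therefore does not show a rise of each marker in all 6 animals. In *T* + *WSD* against *C* 3 of the 8 tested markers were called higher (4.72% of all tested genes were) and 1 lower (5.29%). The part of muscle in the *ENO3* level was not tested.

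*PKLR*, a pyruvate kinase of liver and red cells, was the only pyruvate kinase measured here and was scarce, with 0 to 30 counts per animal. It ran from 0.368 to 1.69 CPM (median 0.786) in *C*, 0.436 to 1.12 CPM (median 0.636) in *T*, 0.271 to 0.803 CPM (median 0.439) in *WSD* and 0 to 0.379 CPM (median 0.284) in *T* + *WSD*. In *T* + *WSD* 5 of 6 animals lay below every control, and all 6 lay below every *T* animal. The group totals were 101 counts in *C* and 30 in *T* + *WSD*. On the log2 scale the fold change was -1.65 ± 0.41 (SE, adjusted p = 0.0115) in *T* + *WSD* against *C*, and the call was kept in all 24 fits that left out 1 animal, between -1.82 and -1.32. Animal *C* 1 had the highest *PKLR* and the highest summed mesothelial markers, and the call was kept without it. With the mesothelial list mean as a covariate the log2 fold change was -0.17 (adjusted p = 0.999). No gene of the 15207 was called in this comparison of that fit. The mesothelial markers were themselves lower in *T* + *WSD* than in *C*, so the fit cannot separate them from the treatment. The part of mesothelial cells in the *PKLR* level was not tested.

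Lactate dehydrogenase interconverts pyruvate and lactate, with *LDHA* as the subunit of glycolytic tissues and *LDHB* that of the heart. *LDHA* ran from 144 to 344 CPM (median 220.3) in *C*, 168 to 258 CPM (median 232) in *T*, 195 to 377 CPM (median 331) in *WSD* and 203 to 269.7 CPM (median 247) in *T* + *WSD*. The *WSD* median was the highest, and the log2 fold change was 0.43 ± 0.19 (SE, adjusted p = 0.222) in *WSD* against *C* and -0.40 ± 0.19 (SE, adjusted p = 0.233) in *T* + *WSD* against *WSD*. *LDHB* spread over a wide range, with 10.6 to 70.9 CPM in *C*, 1.05 to 69.8 CPM in *T*, 16.5 to 94.0 CPM in *WSD* and 27.5 to 48.4 CPM in *T* + *WSD*. Animal *T* 17 had 1.05 CPM of *LDHB* (31 counts), beside 34.8 to 69.8 CPM in the other 5 *T* animals and at least 10.6 CPM in the other 23 animals of the study.

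A further identifier with the symbol *LDHB* (ENSMMUG00000019109, 1077 counts in all) was not used for the values above. It had 33 to 203 counts in 8 animals of all 4 groups and 0 to 3 counts in the other 16. Reads can be divided between near-identical copies, and how the counting treated them is not given in the sources used here, so the level of *LDHB* is uncertain.

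Pyruvate carboxylase (*PC*) makes oxaloacetate from pyruvate in mitochondria, the first step of gluconeogenesis and glyceroneogenesis. *PC* ran from 101 to 1041 CPM (median 612) in *C*, 541 to 1041 CPM (median 591) in *T*, 590.3 to 1979 CPM (median 751) in *WSD* and 249 to 769.7 CPM (median 578) in *T* + *WSD*. Animals *WSD* 20 and *WSD* 24, at 1979 and 1594 CPM, lay above all others. Its log2 fold change was 0.79 ± 0.40 (SE, adjusted p = 0.294) in *WSD* against *C*, -0.99 ± 0.40 (SE, adjusted p = 0.171) in *T* + *WSD* against *WSD* and -1.19 ± 0.57 (SE, adjusted p = 0.369) in the interaction, none of them called.

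The phosphoenolpyruvate carboxykinases turn oxaloacetate into phosphoenolpyruvate, *PCK1* in the cytosol and *PCK2* in mitochondria. *PCK2* ran from 11.1 to 24.8 CPM (median 15.8) in *C*, 9.16 to 44.8 CPM (median 14.4) in *T*, 5.70 to 20.1 CPM (median 9.49) in *WSD* and 3.39 to 11.1 CPM (median 6.25) in *T* + *WSD*. In *T* + *WSD* 5 of 6 animals lay below every control, and the highest of the 24 was *T* 16 at 44.8 CPM. *PCK2* had a log2 fold change of -1.35 ± 0.39 (SE, adjusted p = 0.0204) in *T* + *WSD* against *C* and -1.47 ± 0.38 (SE, adjusted p = 0.0293) against *T*, both called. Against *WSD* it was -0.64 ± 0.38 (SE, adjusted p = 0.359).

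The call of *PCK2* against *C* was kept in 21 of the 24 fits that left out 1 animal, and that against *T* in 19 of 24. Without *C* 1, *C* 3 or *T* + *WSD* 8, the calls over all genes against *C* fell from 1522 to 900, 1134 and 1119. Against *C* the call was lost without *C* 1, *C* 3 or *T* + *WSD* 8, with adjusted p of 0.0603, 0.0516 and 0.0504, and the log2 fold changes of all fits that left out 1 animal stayed between -1.57 and -1.20. Against *T* it was lost without *T* 16, where the log2 fold change was -1.0 (adjusted p = 0.0845), and without *T* + *WSD* 7, 8, 9 or 10. It was also lost in the 16 libraries outside the library batch, at -1.43 (adjusted p = 0.0949).

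*PCK1*, the classical enzyme of adipose glyceroneogenesis, spread widely within groups. It ran from 20.9 to 517 CPM (median 83.5) in *C*, 90.8 to 684 CPM (median 285) in *T*, 7.39 to 455 CPM (median 138) in *WSD* and 78.9 to 209 CPM (median 159) in *T* + *WSD*. Within *WSD*, animals 23 and 24 were at 7.39 and 20.3 CPM and animal 20 at 455 CPM, and in *C* the animals ran over a similar range, while the *T* + *WSD* animals lay close together. The log2 fold change in *T* + *WSD* against *C* was -0.23 (95% interval -1.81 to 1.36, adjusted p = 0.88).

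Phosphoglucomutases link glucose 6-phosphate to glycogen and galactose. *PGM1* ran from 112 to 199.5 CPM (median 145) in *C*, 145 to 179 CPM (median 159.6) in *T*, 136 to 257 CPM (median 191) in *WSD* and 133 to 179 CPM (median 162) in *T* + *WSD*. In *WSD* 3 of 6 animals lay above every control, and the log2 fold change was 0.40 ± 0.14 (SE, adjusted p = 0.171). *PGM2* stayed within a narrow range, with 61.1 to 74.6 CPM in *C*, 57.6 to 79.7 CPM in *T*, 58.9 to 83.5 CPM in *WSD* and 52.6 to 76.4 CPM in *T* + *WSD*, and its log2 fold change in *T* + *WSD* against *WSD* was -0.23 ± 0.10 (SE, adjusted p = 0.203).

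Ratios of counts between isozymes within a library need no normalization, and 3 of them were compared between *T* + *WSD* and *C* by a two-sided exact permutation test over the 12 animals, adjusted over the 3 ratios. The log2 ratio of *HK2* to *HK1* ran from -3.02 to -2.19 (mean -2.69 ± 0.30 SD) in *C*, -4.64 to -2.38 (mean -3.53 ± 0.90 SD) in *T*, -2.84 to -1.57 (mean -2.02 ± 0.43 SD) in *WSD* and -2.40 to -1.31 (mean -2.0 ± 0.45 SD) in *T* + *WSD*. *T* + *WSD* was higher than *C* by 0.69 (exact permutation p = 0.0130, adjusted p = 0.0292), and the groups overlapped.

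For *PCK1* to *PCK2* the log2 ratio ran from 0.64 to 4.39 (mean 2.6 ± 1.42 SD) in *C*, 2.74 to 4.83 (mean 4.00 ± 0.79 SD) in *T*, -0.69 to 6.24 (mean 3.02 ± 2.78 SD) in *WSD* and 3.34 to 5.44 (mean 4.57 ± 0.78 SD) in *T* + *WSD*. *T* + *WSD* was higher than *C* by 1.97 (exact permutation p = 0.0195, adjusted p = 0.0292). *HK2* and *PCK2* were themselves called between the same *C* and *T* + *WSD* animals, so the tests of these 2 ratios are not independent of those calls. The log2 ratio of *LDHB* to *LDHA* ran from -3.76 to -2.28 (mean -2.71 ± 0.55 SD) in *C*, -7.30 to -1.83 (mean -3.13 ± 2.07 SD) in *T*, -3.56 to -1.85 (mean -2.50 ± 0.61 SD) in *WSD* and -3.23 to -2.12 (mean -2.74 ± 0.45 SD) in *T* + *WSD*, and the difference between *T* + *WSD* and *C* was -0.03 (exact permutation p = 0.924, adjusted p = 0.924), within the spread of either group. The adjusted p passed 0.05 without *C* 5 for both of the first 2 ratios (0.0552 each) and without *T* + *WSD* 8 for *PCK1* to *PCK2* (0.0584).

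**Figure D3:**
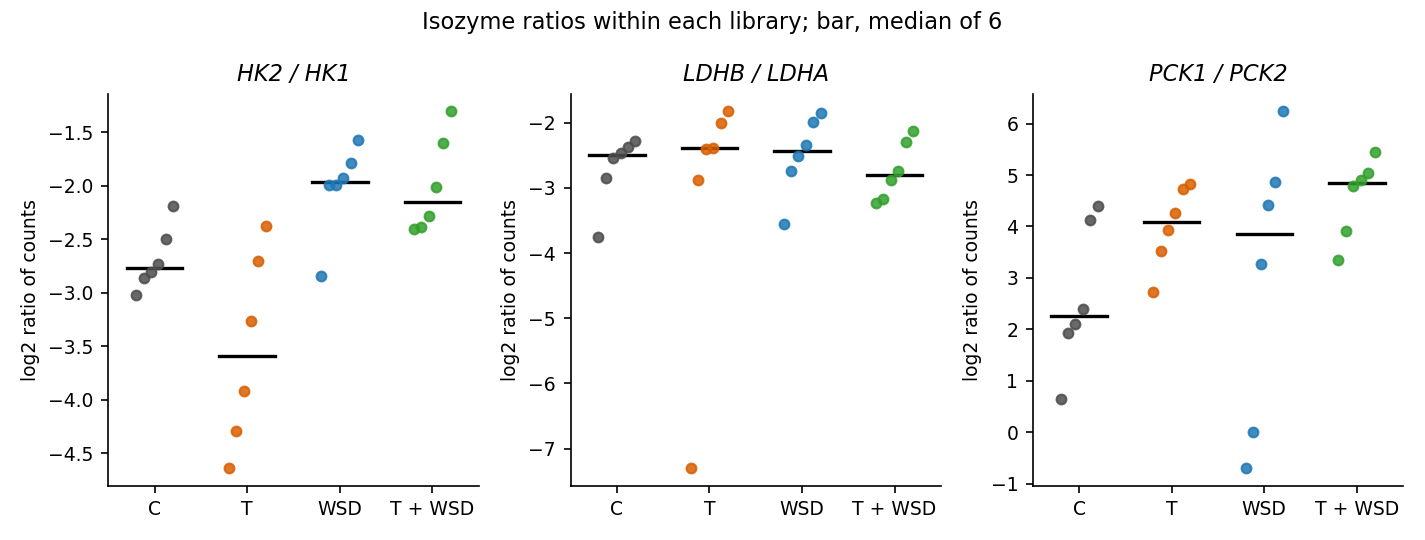
Each point is 1 animal, the y axis is the log2 ratio of counts (0.5 added to each) and the bar is the median of 6 animals. The *WSD* and *T* + *WSD* medians (-1.96 and -2.15) sit above that of *C* (-2.77) for *HK2* to *HK1*, and 1 *T* animal is far below the rest for *LDHB* to *LDHA*.

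The departures of single animals ran through many members at once. Animal *C* 1 had the lowest level of the 24 in 8 of the 27 members (*HK1*, *HK3*, *GPI*, *ALDOA*, *ALDOC*, *GAPDH*, *LDHA* and *PC*), with a median departure of -0.49 on the log2 scale from the mean of all animals. Animals *WSD* 20, 23 and 24 held the highest level in 14 members between them, with median departures of 0.44, 0.28 and 0.44, and lay above the mean in 20, 23 and 23 members. The other 3 *WSD* animals had median departures between -0.04 and 0.11. Animal *T* 16 was the highest of all in *BPGM*, *PCK1*, *PCK2*, *PFKFB1* and *PFKFB4*, and the lowest in *PGK1* and *PGAM1*. Of the 6 members in which *T* + *WSD* 8 was the lowest, *PKLR* had no count and *ENO2* 4 counts in that library, which had the fewest counts of the study and 54.7% of them in 1 gene.

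**Figure D4:**
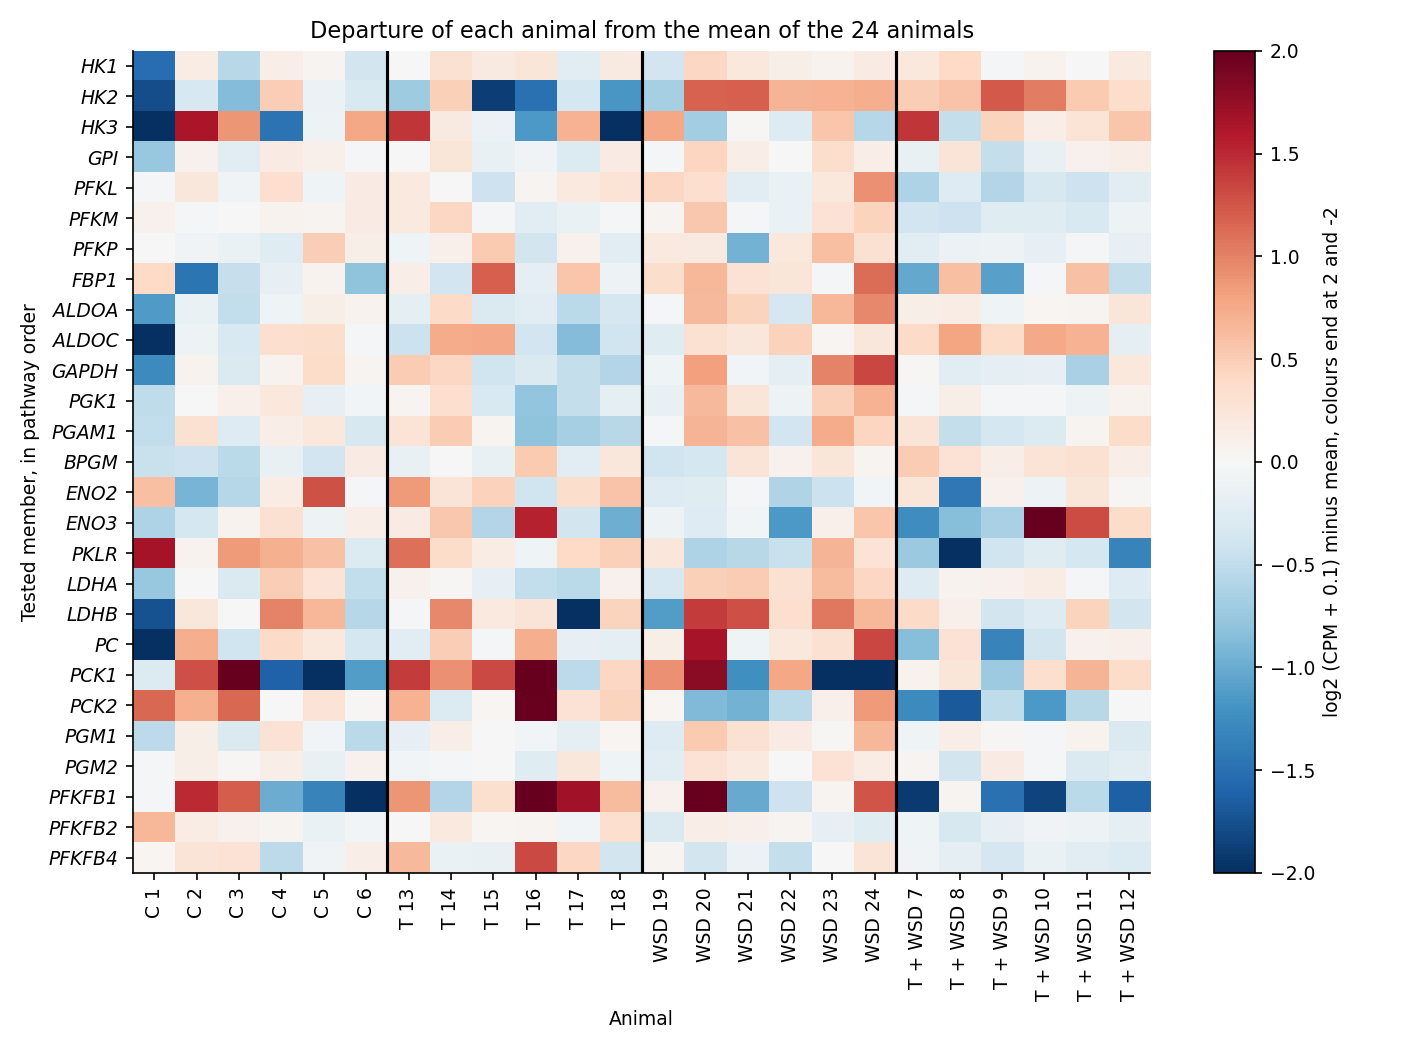
Columns are the 24 animals in their groups, rows the 27 tested members in pathway order, and the colour is the log2 of CPM + 0.1 minus the mean of the 24 animals, with the scale ending at 2 and -2. The column of *C* 1 lies below the mean in 20 of 27 rows, and the columns of *WSD* 20, 23 and 24 lie above it in 20, 23 and 23 rows.

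Genes around the pathway were read from 8 lists, with edgeR's calls. The glucose transporters had 1 of 7 called higher in *T* + *WSD* against *C* (4.72% of all tested genes were), the intracellular *SLC2A8* (log2 fold change 0.64 ± 0.20 SE, adjusted p = 0.0304). In *T* + *WSD* against *WSD* 1 of 7 was lower (0.381% of all tested genes were), the fructose transporter *SLC2A5*. *SLC2A5* ran from 38.0 to 66.0 CPM (median 51.6) in *C*, 13.1 to 62.8 CPM (median 26.5) in *T*, 31.2 to 388 CPM (median 134) in *WSD* and 11 to 93.7 CPM (median 21.4) in *T* + *WSD*, with a log2 fold change of -2.30 ± 0.58 (SE, adjusted p = 0.0437). Among the isozymes outside the members, *LDHD*, which oxidizes the D form of lactate, was lower in *T* + *WSD* against *T*, with a log2 fold change of -1.24 ± 0.34 (SE, adjusted p = 0.0341).

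The list of the mitochondrial pyruvate carrier and the pyruvate dehydrogenase complex, which take pyruvate on to acetyl-CoA, had 2 of 14 genes called lower in *T* + *WSD* against *WSD* (0.381% of all tested genes were). None was called in *T* + *WSD* against *C* (10% of all tested genes were). DESeq2 called 6 of the list in *T* + *WSD* against *WSD*, beside 2.54% of its genes. The genes called by edgeR were the carrier subunit *MPC1* (log2 fold change -1.55 ± 0.36 SE, adjusted p = 0.037) and the E1 subunit *PDHB* (log2 fold change -0.78 ± 0.16 SE, adjusted p = 0.0261). *PDHB* ran from 90.5 to 138 CPM (median 113) in *C*, 81.3 to 128 CPM (median 99.9) in *T*, 98.8 to 218 CPM (median 119) in *WSD* and 74.2 to 92.3 CPM (median 80.2) in *T* + *WSD*, and every *T* + *WSD* animal lay below every *WSD* animal (1.37% of all genes were below without overlap). All 14 had a negative log2 fold change in *T* + *WSD* against *WSD*, with a median of -0.63, against -0.03 over all tested genes. In *WSD* against *C* 13 of 14 were positive with a median of 0.47, against -0.02 over all tested genes. Both comparisons use the same *WSD* animals, so these values are not independent of each other. The list also holds the inhibitory kinases of the complex, so that its median does not give a direction of flux.

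Of all tested genes, 4.72% were called higher and 5.29% lower in *T* + *WSD* against *C*, and 2.34% higher and 1.43% lower against *T*. Among 4 genes of lactate transport, the monocarboxylate transporter *SLC16A1* was lower in *T* + *WSD* against *C* (log2 fold change -0.98 ± 0.22 SE, adjusted p = 0.0062) and against *T*. Of 15 glycogen genes the phosphorylase *PYGL* was higher in the same comparisons (log2 fold change 0.78 ± 0.22 SE, adjusted p = 0.0204, against *C*), and of 6 genes of the glycerol 3-phosphate branch the aquaglyceroporin *AQP3* was higher against *C* (log2 fold change 1.21 ± 0.33 SE, adjusted p = 0.0166). Of 9 transcriptional regulators of glycolysis, *EPAS1*, a hypoxia-inducible factor, was higher in *T* + *WSD* against *C* (log2 fold change 1.02 ± 0.16 SE, adjusted p = 0.00226), as was *MLXIP*, a glucose-sensing factor (log2 fold change 0.76 ± 0.17 SE, adjusted p = 0.00586), and *MYC* was lower (log2 fold change -1.30 ± 0.33 SE, adjusted p = 0.0126). *EPAS1* is also abundant in endothelium, whose marker list was higher in *T* + *WSD*, with summed levels of 1973 to 3048 CPM against 1050.0 to 1759 CPM in *C*, and the part of these cells in its level was not tested. Of 7 pentose phosphate genes edgeR called none in any comparison. DESeq2 called 1 in *WSD* against *C* (1.58% of its genes) and 1 in *T* + *WSD* against *WSD* (2.54% of its genes). By edgeR, 4 of the 7 were higher in *WSD* against *C* (9.59% of all genes were) and 4 lower in *T* + *WSD* against *WSD* (12.1%) at an unadjusted p under 0.05.

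**Figure D5:**
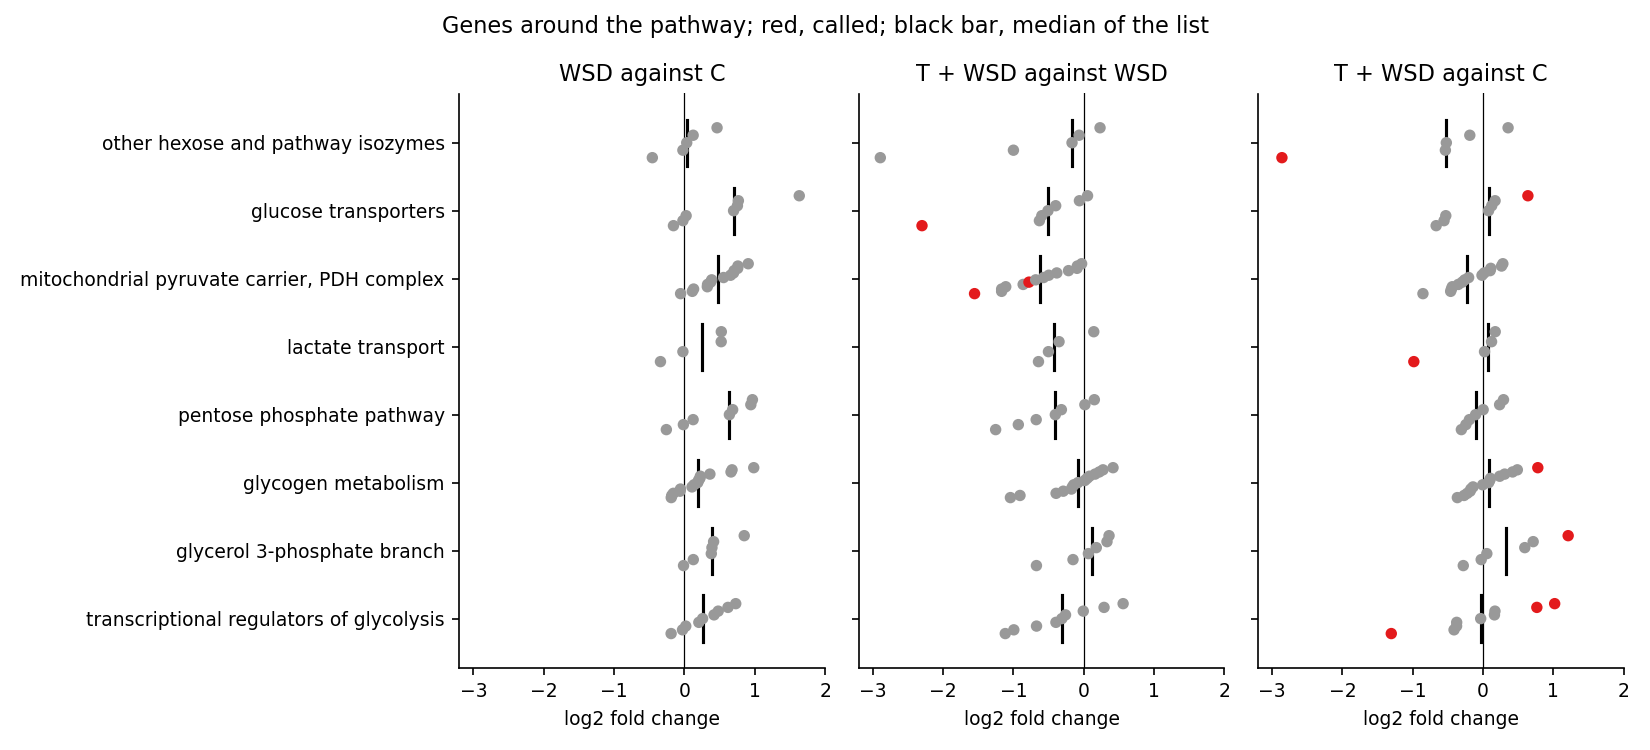
Each point is 1 tested gene of the 8 lists around the pathway, the x axis is its log2 fold change and the black bar the median of the list, in *WSD* against *C*, *T* + *WSD* against *WSD* and *T* + *WSD* against *C*. Red marks called genes; all 14 points of the pyruvate carrier and dehydrogenase list lie left of 0 in the second panel.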

How the data were processed

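RNA was extracted by the authors from frozen omental WAT, and sequencing libraries were made from total RNA depleted of rRNA, with single reads. Per the labels, reads were checked with FastQC 0.11.5 and trimmed with Trimmomatic 0.36, and the methods name alignment to rheMac8 with STAR (2.5.2b in the labels). The authors deposited 1 table of raw counts per gene, whole numbers without normalization, with 1 column per animal; the counting tool and its strand setting are not given in the sources used here. Reads of overlapping, antisense and near-identical genes can therefore be misassigned. The deposited counts summed to between 6899185 and 28270776 per animal, which limits the precision of scarce genes. Within groups, all 60 library pairs differed in their counts.

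Groups came from the sample titles. Counts were normalized with TMM and tested in R 4.3.3 with edgeR 4.0.16 (filterByExpr with a minimum count of 10 and total of 15, glmQLFit with robust and legacy set, quasi-likelihood F-test) in 1 fit of 24 animals and 4 groups, without covariates, and p values were adjusted over 15207 genes. Isozyme ratios used counts + 0.5 and an exact permutation test over 924 splits. The scripts were tested on simulated data. Alternatives were DESeq2 1.42.0, RLE and upper-quartile scaling, other filters, only the groups compared, marker lists or the library batch as covariates, only the 16 libraries outside the batch, and each animal left out. Symbols were taken from the gene name table (17621 rows) or the supplementary tables of the study (222 rows). No genome, gene lengths or sequences were used. For 1 called gene of the wider lists the values are not reported here, and its list is given without counts.

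The members and lists were chosen with earlier results of these data known, and the pathway is one that the study itself drew from these libraries, so that no count over it is independent evidence. All 34 members are named; levels with medians are given for members called in any comparison and for the member with the most counts at each step, and genes of other lists only where called, at most 3 per list by adjusted p. *PFKM* is also shown in full because of its levels, a choice made after they were seen.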

Additional observations from a re-analysis of the deposited data

Results flagged for a closer look

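Within the 6 animals of a group, the highest or lowest animal lay far from the others, by Dixon's ratio of the gap to the range at its 95% critical value, in 7 of the 108 sets of 6 values examined for the 27 tested members. Chance flags about 1 in 20 such sets, and 6 of the 7 were high values. In *T*, animal 16 stood out for *PCK2* (44.8 CPM, the others 9.16 to 18) and *PFKFB1* (49.9 CPM, the others 2.87 to 14.2), animal 14 for *ALDOA* (324 CPM, the others 171 to 219.6) and animal 13 for *PKLR* (1.12 CPM, the others 0.436 to 0.688). In *WSD*, animal 20 had 29.9 CPM of *PFKFB1*, beside 2.12 to 10.6 CPM in the others. In *C*, animal 1 had 13 CPM of *PFKFB2*, beside 7.46 to 9.03 CPM. The 1 low value was *ENO2* in *T* + *WSD* 8, at 1.13 CPM beside 2.99 to 3.83 CPM, which rests on 4 counts. The testosterone differences under the 2 diets differed for no tested member by edgeR's interaction term. For no member were the groups with and without testosterone separated without overlap one way on one diet and the opposite way on the other.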

How the results depend on the processing

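The 27 tested members gave few calls, with adjusted p from 0.0115 (*PKLR*) to 0.0484 (*HK2*, both in *T* + *WSD* against *C*). Counts of called members moved with single animals, and the calls over all genes moved too. In *T* + *WSD* against *C* the 3 members called became 0 with the mesothelial or the adipocyte list mean as a covariate and in the 16 libraries outside the batch, 2 with the library batch as a covariate or without a filter on low counts (*HK2* lost in both), 2 with at least 10 counts in every animal or only the groups compared (*PKLR* then failed the filter), and 6 without a fold-change threshold; leaving out each animal gave 1 to 3, with 1 without *C* 1, *C* 3 or *T* + *WSD* 8. In these 16 libraries, 4 a group, *HK2*, *PCK2* and *PKLR* had log2 fold changes of 0.96, -0.92 and -1.25, and 78 of all genes were called. In *WSD* against *C*, DESeq2 called 1 member (edgeR 0). In *T* + *WSD* against *WSD* the 1 member became 0 in the fit of only the groups compared, with the mesothelial covariate and in the 16 libraries, and 2 with DESeq2 or without a fold-change threshold; leaving out each animal gave 0 to 1, with 0 without *WSD* 20 or 24 or *T* + *WSD* 7 to 11. In *T* + *WSD* against *T* the 3 members became 1 without a filter on low counts, 0 with the mesothelial covariate, 2 in the 16 libraries (*PCK2* lost), 2 with at least 10 counts in every animal and 4 with only the groups compared; leaving out each animal gave 0 to 4, with 1 without *T* + *WSD* 7 and 0 without *T* 16 or *T* + *WSD* 8, 9 or 10. In the interaction DESeq2 called 1 member, and leaving out each animal gave 0 to 3, the 3 (*PFKFB1*, *PFKL* and *PFKM*) without *WSD* 21. The *T* against *C* count stayed at 0 throughout. With the mesothelial covariate no gene at all was called in *T* + *WSD* against *C* or against *T*. Over all genes, 124 were called in *T* + *WSD* against *WSD* with all animals. Without *WSD* 20 or 24 or *T* + *WSD* 7 to 11, between 9 and 39 were. In *T* + *WSD* against *T* the calls over all genes were 574 with all animals, and 238 to 315 without *T* 16 or *T* + *WSD* 8, 9 or 10. The cause of these shifts was not tested.

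In the 16 libraries the ratio differences were 0.74 for *HK2* to *HK1* and 1.93 for *PCK1* to *PCK2*, each with an adjusted p of 0.129, where the smallest unadjusted p is 0.0286. Leaving out each animal gave 0.55 to 0.79 for *HK2* to *HK1*, 1.58 to 2.33 for *PCK1* to *PCK2*, and -0.24 to 0.067 for *LDHB* to *LDHA*. Of 5611 recomputed log2 fold changes of members, none that was called changed sign, 67 lost and 9 gained a call, and 193 uncalled ones changed sign. No paired analysis was possible because the groups share no replicate numbers.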
